A study of Mus musculus with 29 samples.

Results

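Bone marrow niche cells of 3 kinds were compared between a wild-type (WT) and a Wnt5a-haploinsufficient niche, to ask which transcripts differed in the same way in all of them. The comparison uses 18 of the study's 29 libraries, chosen by their labels alone: 9 labelled Wnt5a against 9 labelled WT. Each genotype has 3 libraries of endothelial cells (EC), 3 of osteoblastic cells (OBC) and 3 of mesenchymal cells (MSC). Each population counted equally, so that the value given for a gene is the mean of its 3 within-population differences, called the shared difference here. Of 18194 mouse genes in the table, 1099 had enough counts to be tested.

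The study followed blood stem cells regenerating after transplantation in niches of the 2 genotypes, and profiled both the stem cells and the niche. Wnt5a-haploinsufficient means that 1 of the 2 copies of Wnt5a is not functional, and the labels do not say in which cells. All 18 niche libraries carry the strain label 129Ly5.1, and their cells were collected by FACS straight into a lysis solution. Their cDNA was barcoded and pooled with unique molecular identifiers (UMIs), which count molecules rather than reads. The labels give no age, no sort gates and no statement on whether niche cells came from transplanted hosts. They also do not say whether libraries came from separate animals, so p-values measure the spread between these libraries, which may be technical. If the EC, OBC and MSC libraries share animals, the p-values of the shared difference are too small.

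WNT5A is a secreted ligand that signals mainly without stabilising beta-catenin, through receptors of the Frizzled, ROR and RYK families, and acts on cell polarity, the actin cytoskeleton and calcium signalling. In the marrow, endothelial, osteoblastic and mesenchymal cells surround blood stem cells and provide ligands such as stem cell factor and CXCL12. Marrow is also crowded with maturing neutrophils and red cells, which express a small number of transcripts at very high levels. Wnt5a itself was not analysed here, so the targeted gene gives no check of the labels.

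Depth and cell make-up differed between libraries. Totals were 18542 to 117989 UMIs in EC, 10635 to 29772 in OBC and 19999 to 50421 in MSC, and the 1099 tested genes held between 54.9% and 70.0% of them. Markers matched the labels only in part. The 7 osteoblastic markers summed to 6206 to 18054 UMIs per 1000000 of all UMIs in OBC WT and to 3206 to 6144 in OBC Wnt5a, against 1355 to 3628 in EC WT, so that the sum in OBC Wnt5a overlapped EC. Most of the EC WT sum was Sparc, with 279, 114 and 290 UMIs. Col1a1 had 2, 4 and 6 UMIs in EC WT and 22, 30 and 8 in the smaller OBC Wnt5a libraries. Col1a2 had 8, 4 and 5 against 27, 38 and 15, while Alpl went the other way, at 13, 5 and 19 against 0, 1 and 1. Ibsp, Spp1 and Bglap had 0 to 9 UMIs in these libraries. The 6 endothelial markers summed to 5734 to 10474 UMIs per 1000000 of all UMIs in EC WT libraries, but also to 8404 to 8888 in MSC WT and 4412 to 6250 in MSC Wnt5a, against 1041 to 2821 in OBC WT. In EC Wnt5a they summed to 7479 to 12242, so that MSC Wnt5a lay below EC Wnt5a while MSC WT lay within the range of EC WT. The MSC libraries also held more of their own 6 markers (2320.1 to 6850.3 per 1000000, against 1071 to 2029.9 in EC WT). In EC WT replicate 14, haemoglobin and other red cell transcripts made up 25.0% of UMIs, against 2.01% to 12.5% in the other 17 libraries. Xist had 1, 2 and 1 UMIs in EC Wnt5a replicate 16, OBC Wnt5a replicate 10 and MSC Wnt5a replicate 4, and 9 to 53 in the WT libraries, while Y-linked transcripts had UMIs in 16 of 18 libraries. OBC Wnt5a replicate 11 had 3 Xist UMIs, 0.0171% of its UMIs, against 0.02975% or more in the WT libraries. The 3 Wnt5a libraries with 1 or 2 Xist UMIs hold the lowest replicate number of their groups. Whether the animals' sex differed between the genotypes is not given in the labels, and its part in the results was not tested.

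In the shared difference, transcripts of neutrophil granules and cytosol, the HSP90 chaperones and several ribosomal protein pseudogenes rose in the Wnt5a libraries. Cystatin C, the endothelial regulator Rgcc and the niche ligand stem cell factor were among those that fell. Their calls were lost in 7, 6 and 13 of 18 fits that each left out 1 library, and stem cell factor fell mainly in MSC. In all, 34 genes passed the test (edgeR's quasi-likelihood test, Benjamini-Hochberg adjusted p under 0.05): 24 were higher, which is 2.18% of the genes tested, and 10 were lower, which is 0.91%. A further look at direction in each population showed 23 of the 24 higher genes positive in EC, OBC and MSC, Birc5 being negative in EC, and all 10 lower genes negative in each. Passing the test favours such genes, so this is a description of the 34 and no separate evidence. Of the 34 genes, 26 passed in no single population. None passed the test of interaction, which asks whether the 3 differences differ from each other (smallest adjusted p = 0.171). Its unadjusted p was under 0.05 for 6 of the 34, Ngp, Birc5, Anp32b, Rps24-ps2, Rps9 and Kitl, against 92 of the 1099 genes tested. A missed threshold does not show that the 3 differences are equal.

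**Figure D1:**
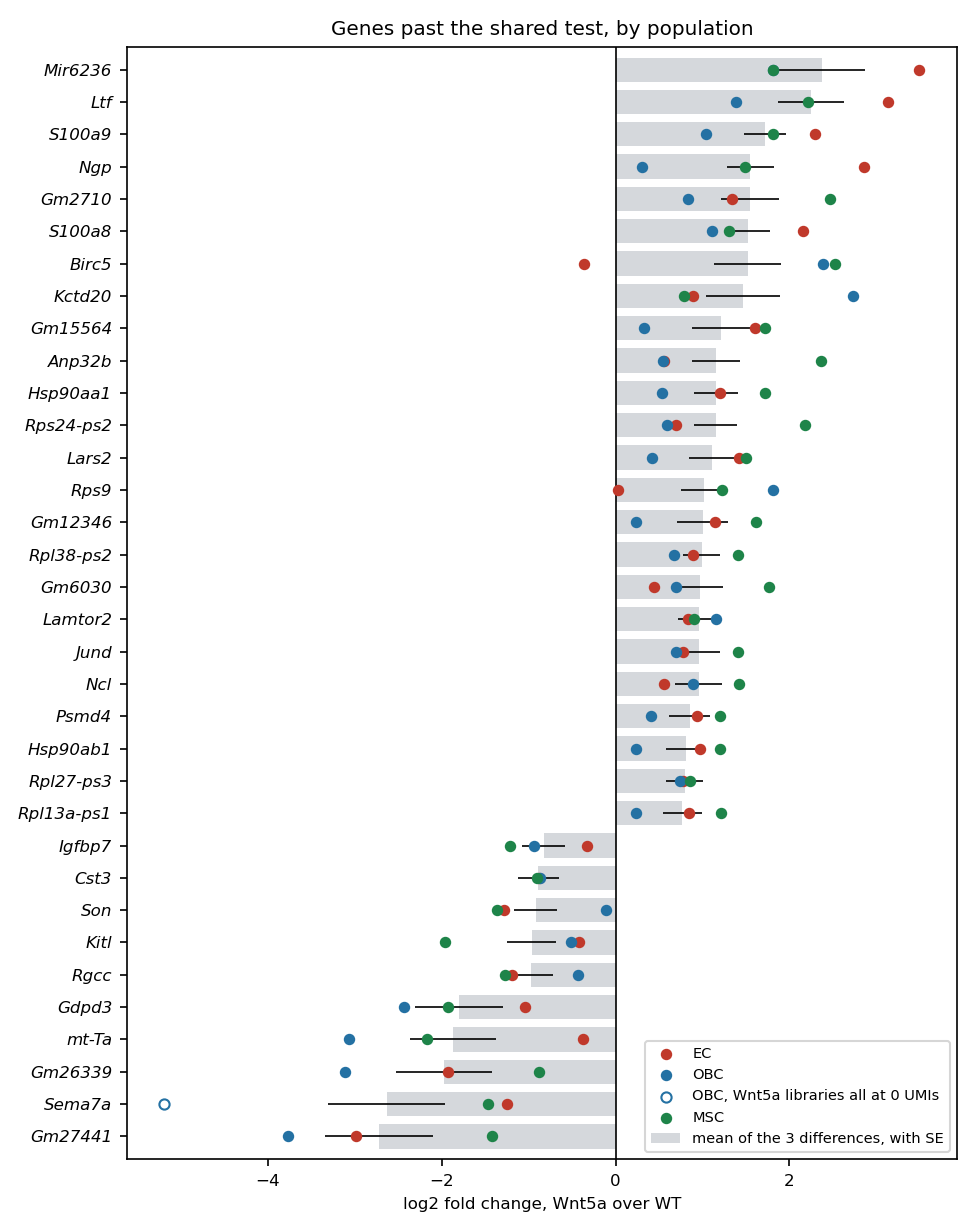
Shared difference (grey bars, with standard error) and the difference within EC, OBC and MSC (points) for the 34 genes past the shared test, as log2 fold change of Wnt5a over WT from a single edgeR fit. The 24 higher genes lie to the right and the 10 lower to the left. Birc5 has a negative value in EC, and the open point for Sema7a stands for OBC Wnt5a libraries that are all at 0 UMIs, where the fitted value is not a measured fold.

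The number of genes moved with the libraries used. Without EC WT replicate 14, the library rich in haemoglobin, 71 genes passed. Fewer passed without MSC WT replicate 1 (14 genes), MSC Wnt5a replicate 5 (15), any of EC Wnt5a replicate 18, replicate 7 of OBC WT, replicate 10 of OBC Wnt5a and replicate 2 of MSC WT (17 each), OBC Wnt5a replicate 11 (18), EC WT replicate 13 (20) or MSC Wnt5a replicate 6 (21). Without the 3 Wnt5a libraries with the lowest Xist, a check added after seeing the data, 18 genes passed, 17 higher and 1 lower. That check kept OBC Wnt5a replicate 11, which had 3 Xist UMIs. With RLE instead of TMM scaling 16 of 29 genes were higher (55.2%, against 70.6%). With haemoglobin, immunoglobulin, mitochondrial and ribosomal RNA transcripts, Mir6236 and Lars2 left out before scaling, the share was 81.2% of 32. Neutrophil transcripts were kept in that run. In each of the 18 fits without 1 library 8 genes passed: S100a9, S100a8, Ltf, Ngp, Hsp90aa1, Rps24-ps2, Rpl38-ps2 and Gm2710, each of them higher.

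Among these, the neutrophil transcripts stood first. S100a9 and S100a8, at chr3:90692632-90695721 and chr3:90668978-90670035 (GRCm38), encode the 2 subunits of calprotectin, a calcium-binding protein that is very abundant in neutrophil cytosol. Ltf (chr9:111019271-111042767) encodes the iron-binding granule protein lactoferrin, and Ngp (chr9:110419747-110423012) a cystatin-like granule protein. These neutrophil genes are commonly switched on by factors of the C/EBP family, so the 250 bases before their RefSeq starts are shown with matches to a C/EBP core, TTGCNNAA on either strand, in capitals. The sequences are from RefSeq promoter entries of GRCm38.p6: S100a8 from chr3:90668821-90669070 on the plus strand, S100a9 from chr3:90695722-90695971 on the minus strand, Ltf from chr9:111019042-111019291 on the plus strand and Ngp from chr9:110419558-110419807 on the plus strand, each printed 5′ to 3′ towards the gene.
S100a8: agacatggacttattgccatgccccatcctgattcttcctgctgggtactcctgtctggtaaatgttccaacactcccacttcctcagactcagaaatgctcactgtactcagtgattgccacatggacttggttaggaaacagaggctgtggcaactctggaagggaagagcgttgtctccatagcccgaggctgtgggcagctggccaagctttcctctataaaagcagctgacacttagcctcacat
S100a9: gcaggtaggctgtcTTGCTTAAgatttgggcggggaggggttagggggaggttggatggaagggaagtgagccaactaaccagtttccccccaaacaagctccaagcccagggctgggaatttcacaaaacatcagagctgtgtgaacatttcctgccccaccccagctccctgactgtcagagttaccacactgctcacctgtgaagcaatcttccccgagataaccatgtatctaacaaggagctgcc
Ltf: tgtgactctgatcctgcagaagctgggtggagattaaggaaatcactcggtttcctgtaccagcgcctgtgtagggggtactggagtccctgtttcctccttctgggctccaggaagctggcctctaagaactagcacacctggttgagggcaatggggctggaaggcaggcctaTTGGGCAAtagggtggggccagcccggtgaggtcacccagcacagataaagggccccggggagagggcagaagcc
Ngp: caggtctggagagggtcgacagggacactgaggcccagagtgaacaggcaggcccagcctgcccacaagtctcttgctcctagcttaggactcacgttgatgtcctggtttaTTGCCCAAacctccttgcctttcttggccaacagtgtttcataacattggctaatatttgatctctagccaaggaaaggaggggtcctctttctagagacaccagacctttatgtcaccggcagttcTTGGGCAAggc
The RefSeq starts differ from the GENCODE gene positions given above, and 93, 21 and 61 bases of the windows of S100a8, Ltf and Ngp lie inside the GENCODE gene. S100a8 has no match in this window, S100a9 has 1 match 236 bases before the RefSeq start, Ltf has 1 at 75 bases, and Ngp has 2, at 138 and 11 bases, the nearer one inside the GENCODE gene. Of 27018 such promoter entries, 9.56% hold the core, against 4 of the 14 higher genes and 0 of the 7 lower genes that have an entry. The fourth higher gene with a match was Jund, and a match of letters is a description, not a binding site.

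S100a9 stood at 186, 268 and 167 CPM (UMIs per 1000000 UMIs of the tested genes, after TMM scaling) in EC WT and at 454, 1506 and 854 in EC Wnt5a. Its levels were 1356, 2921 and 3537 in OBC WT and 5236, 6684 and 3670.3 in OBC Wnt5a. In MSC they were 613, 499.9 and 511 in WT and 1459, 2405 and 1819 in Wnt5a. No Wnt5a library of any population fell within the range of its WT libraries. The log2 fold changes were 2.29 in EC, 1.04 in OBC and 1.82 in MSC, with a shared difference of 1.72 (SE 0.24, adjusted p = 3.06e-06).

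S100a8 was likewise separate in every population, at 50.6, 248 and 144 CPM against 985, 707 and 400.3 in EC. The OBC libraries held 678, 1669 and 1076 in WT and 2521, 3038 and 1898 in Wnt5a, and the MSC libraries 337, 538 and 542 against 948, 1423 and 1084. Its shared difference was 1.52 (SE 0.25, adjusted p = 1.17e-04). Together S100a9, S100a8, Rpl38-ps2, Rpl27-ps3 and Psmd4 were the 5 genes, 0.455% of those tested, whose Wnt5a libraries lay above the WT libraries in all 3 populations. The reverse held for Sema7a and Cav2, 0.182% of those tested, of which Cav2 did not pass the test.

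Ltf rested on fewer molecules, with 0, 0 and 4 UMIs in EC WT and 4, 20 and 3 in EC Wnt5a. In CPM it stood at 301, 556 and 1076 in OBC WT against 776, 2431 and 1392 in OBC Wnt5a, and at 61.3, 115 and 128 against 219, 678 and 455 in MSC. Only the OBC groups overlapped, and the shared difference was 2.24 (SE 0.38, adjusted p = 1.17e-04). Ngp was the least even of these genes: 67.5, 38.2 and 83.7 CPM in WT stood against 454, 602 and 400.3 in Wnt5a in EC, while OBC held 828, 1460.4 and 1538 in WT and 1649, 2026 and 886 in Wnt5a. Its differences were 2.85, 0.30 and 1.49 in EC, OBC and MSC, and the shared difference of 1.55 (SE 0.27, adjusted p = 1.98e-04) no longer passed when EC was left out (0.82, adjusted p = 0.089). Camp, which encodes the antimicrobial peptide cathelicidin, had 0.90 (SE 0.28, adjusted p = 0.0576).

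**Figure D2:**
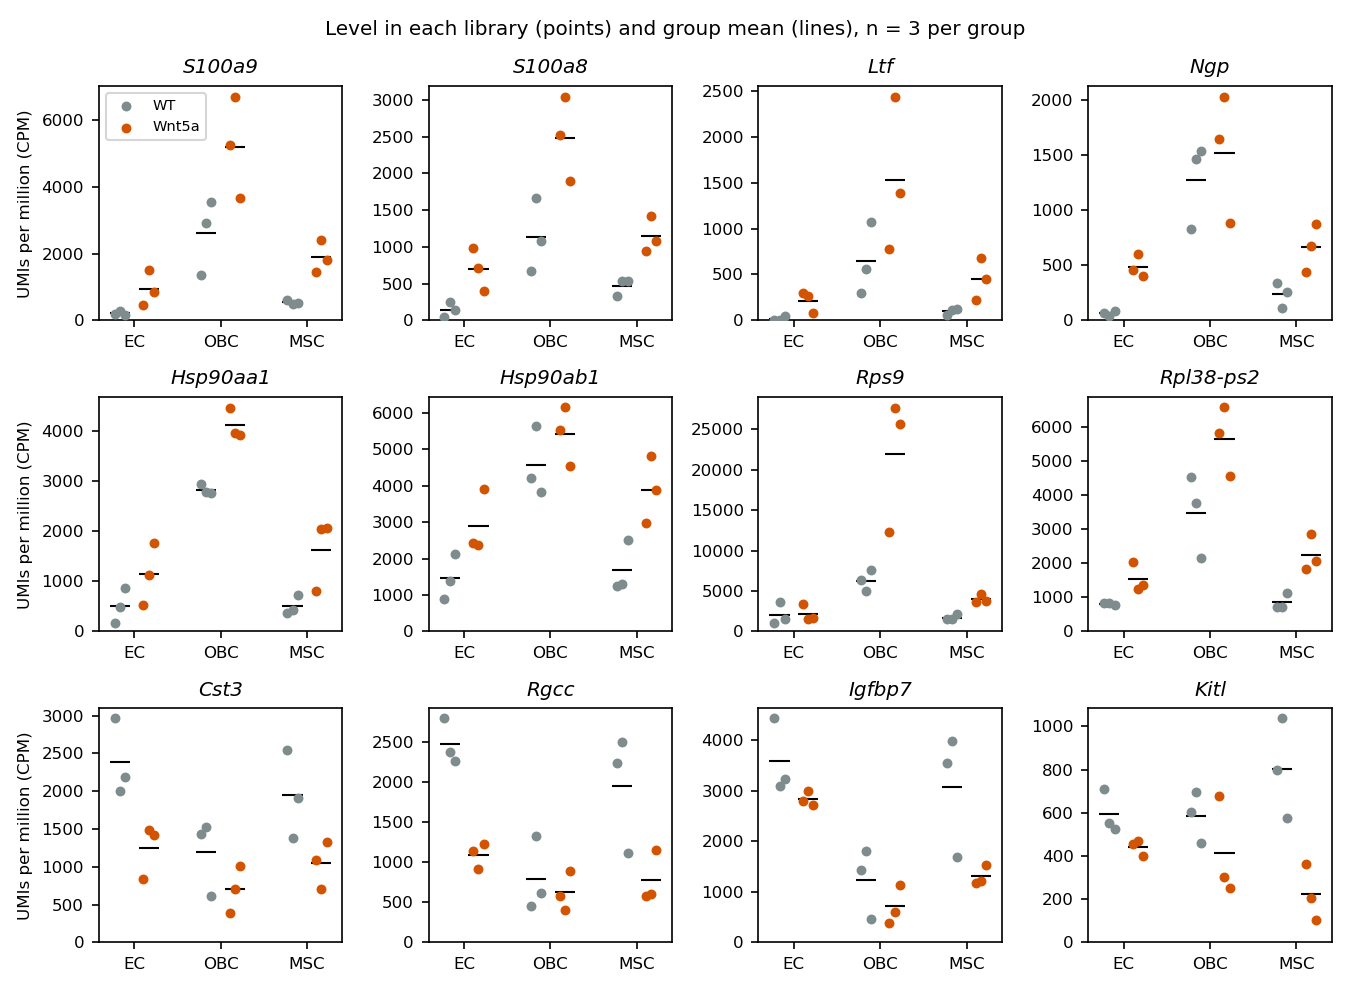
Level of 12 genes in each of the 18 libraries, in CPM after TMM scaling, with the mean of each group of 3 as a line and a separate linear axis from 0 for each gene. S100a9 and S100a8 lie above WT in all 3 populations, Rps9 is raised most in OBC, and Kitl is lowest in MSC Wnt5a.

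Of 26 listed neutrophil genes 5 had enough counts, and 4 of these 5 were higher, with a median of 1.55 against -0.05 for all genes tested. Of the 5, Ltf had enough counts only with its Wnt5a libraries included, so the filter in part sets this count and median. The whole list took 0.0483% to 0.067% of UMIs in EC WT and 0.165% to 0.334% in EC Wnt5a. The shares were 0.307% to 0.545% against 0.692% to 1.03% in OBC and 0.15% to 0.189% against 0.29% to 0.449% in MSC, with no overlap in any population. In every library most of these UMIs came from the 5 tested genes, S100a9, S100a8, Ltf, Ngp and Camp. The share therefore largely restates those genes, 4 of them picked by the test, and is no separate evidence. The other listed members were not compared apart. Markers of other leukocytes were mixed. Ptprc, which encodes the pan-leukocyte protein CD45, had 0 to 2 UMIs in any library, and the 4 macrophage markers reached at most 114 UMIs per 1000000. The 5 B and plasma cell markers summed to 42.0 to 203 UMIs per 1000000 in EC WT and 253 to 701 in EC Wnt5a, and to 1151 to 3114 in MSC WT and 1633 to 3066 in MSC Wnt5a, where they were as high as the 5 neutrophil markers (1017 to 1317 and 2350.1 to 3479.8). The list of immunoglobulin and B cell transcripts took 0.03% to 0.0466% in EC WT and 0.0637% to 0.0917% in EC Wnt5a, and overlapped between genotypes in OBC and MSC. Red cell transcripts overlapped between genotypes in all 3 populations, in EC only through replicate 14 of EC WT, since the other EC WT libraries held 2.01% and 2.70% against 3.98% to 6.55% in EC Wnt5a. None of the 13 tested red cell members passed, with medians of -0.92 in EC, 0.85 in OBC and 0.66 in MSC. The part of red cell and B cell transcripts in the results was not tested. In bulk libraries, more cells of a type and more of its RNA per cell cannot be told apart.

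**Figure D3:**
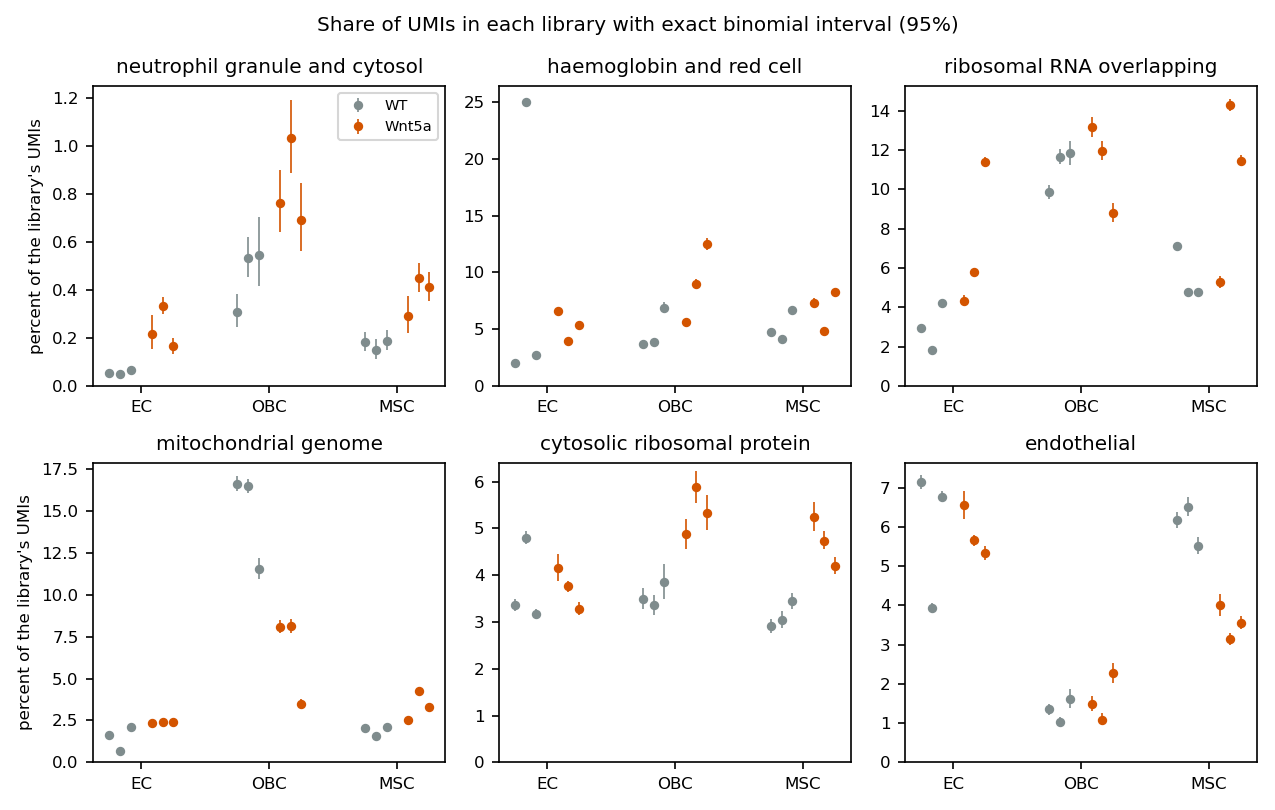
Share of each library's UMIs in 6 gene lists, in percent on linear axes from 0, with exact Clopper-Pearson 95% intervals that cover counting error only. Neutrophil shares do not overlap between genotypes in any population, and come mostly from the 5 tested genes of that list. EC WT replicate 14 stands at 25.0% in red cell transcripts, and mitochondrial shares are lower in OBC Wnt5a than in OBC WT.

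Cytosolic HSP90 chaperones, which fold kinases and steroid receptors, were also higher. Hsp90aa1, the stress-inducible form, stood at 169, 478 and 873 CPM in EC WT and 530.1, 1126 and 1762 in EC Wnt5a. In OBC it was very even, at 2937, 2782 and 2768 in WT and 4461, 3949.7 and 3923 in Wnt5a, and in MSC it stood at 368, 423 and 734 against 802, 2033 and 2064. Groups were apart in OBC and MSC and overlapped in EC, and the shared difference was 1.15 (SE 0.25, adjusted p = 4.23e-03). It did not pass without MSC (0.84, adjusted p = 0.29). Hsp90ab1, the constitutive form, had a shared difference of 0.81 (SE 0.23, adjusted p = 0.0348), which 10 of the 18 fits without 1 library lost. Of 10 tested heat shock chaperones these 2 were higher and 9 had positive values, with a median of 0.55. Over all 1099 genes tested 517 shared values were positive and 582 negative, the background for the counts of signs in each list. Dnaja1, a co-chaperone of HSP70, was the negative one at -0.39 (adjusted p = 0.61). The inducible HSP70 gene Hspa1a had 0.82 (SE 0.53, adjusted p = 0.44).

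Jund, a subunit of the transcription factor AP-1, was the single immediate early or AP-1 gene of 26 tested to pass, at 0.96 (SE 0.24, adjusted p = 0.0203). Its levels were 456, 688 and 1674 CPM in EC WT and 1515, 1375 and 2002 in EC Wnt5a, so that the EC groups overlapped. It lost the call without EC WT replicate 13, EC Wnt5a replicate 18, OBC WT replicate 7, OBC Wnt5a replicate 11, MSC WT replicate 1, MSC WT replicate 2 or MSC Wnt5a replicate 5 (highest adjusted p over these and the other alternatives 0.365). The predicted gene Gm11175 overlaps Jund on the opposite strand, and how counting used strand is not given in the sources used here. Btg1, an antiproliferative gene, and Ier2, an early growth response gene, had 1.08 (SE 0.33, adjusted p = 0.0551) and 1.06 (SE 0.33, adjusted p = 0.0624). Ier2 was uneven, at 2.29 in OBC and -0.05 in MSC. Over the 26 genes 16 values were positive and 10 negative, with a median of 0.32, and Fos and Jun themselves had 0.37 (adjusted p = 0.48) and 0.36 (adjusted p = 0.499).

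Of the 24 higher entries 7 were annotated as processed pseudogenes: Rps24-ps2, Rpl38-ps2, Rpl27-ps3, Rpl13a-ps1, Gm2710, Gm6030 and Gm12346. Of the 1099 genes tested 87 were of this kind. Such near-identical copies share reads with their parent genes, so each value may belong to the parent or to another copy. Rpl38-ps2 stood at 844, 822 and 765 CPM in EC WT and 2045, 1244 and 1361 in EC Wnt5a. In OBC it stood at 4519, 3755 and 2153 against 5818, 6583 and 4556, and in MSC at 705, 731 and 1117 against 1824, 2846 and 2064. The groups did not overlap in any population, and the shared difference was 0.99 (SE 0.22, adjusted p = 4.23e-03). Rps24-ps2 had 1.15 (SE 0.25, adjusted p = 3.98e-03), with 2.18 in MSC against 0.69 in EC and 0.59 in OBC, and its parent Rps24 had 0.69 (SE 0.22, adjusted p = 0.0729). Both pseudogenes failed the test without MSC (adjusted p = 0.45 for Rps24-ps2 and 0.22 for Rpl38-ps2). Rpl13a, the parent of Rpl13a-ps1, stood at 4669, 3199 and 4306 CPM in OBC WT and 2812, 4355 and 3291 in OBC Wnt5a. Its groups overlapped there and in EC, and were apart in MSC, at 1563, 2038 and 2266 against 4231, 4235 and 3673. The groups of Rpl27, the parent of Rpl27-ps3, overlapped in all 3 populations.

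Rps9, a protein of the small ribosomal subunit, was the single ribosomal protein gene of 56 tested to pass (1.02, SE 0.26, adjusted p = 0.0203). It was raised most in OBC, where 6402, 4938 and 7535 CPM in WT stood against 12315, 27648 and 25692 in Wnt5a, and in MSC, where 1532, 1499.5 and 2106 stood against 3575, 4641 and 3743. In EC its log2 fold change was 0.03, and it did not pass without OBC, without MSC, or without EC WT replicate 13, MSC WT replicate 1, MSC WT replicate 2 or MSC Wnt5a replicate 5 (adjusted p up to 0.33). Of the 56 genes, 44 had positive values, with a median of 0.21. By population the median was -0.18 in EC, 0.17 in OBC and 0.63 in MSC, and the list's share of UMIs overlapped between genotypes in EC alone. Rpl26, another gene of this list, had 0.74 (SE 0.23, adjusted p = 0.0576).

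Another 3 higher entries were Mir6236, Lars2 and Gm15564. Mir6236 (chr9:110281287-110281409) had 2.37 (SE 0.50, adjusted p = 0.0189), and in OBC Wnt5a it ran from 13874 to 96061 CPM. Counts over this short span do not measure a mature miRNA. Lars2, the mitochondrial leucyl-tRNA synthetase, had 1.11 (SE 0.27, adjusted p = 0.0201), and Gm15564, an entry antisense to Kpna1 and Parp9 that is on the list of transcripts overlapping ribosomal RNA, had 1.21 (SE 0.34, adjusted p = 0.0348). That list took 1.85% to 4.21% of UMIs in EC WT and 4.33% to 11.4% in EC Wnt5a. It took 9.86% to 11.8% against 8.8% to 13.2% in OBC and 4.75% to 7.11% against 5.29% to 14.3% in MSC. In every library nearly all of its UMIs came from 1 entry, Gm42418, such as 2409 of 2440 in EC WT replicate 13. In MSC Wnt5a replicate 5 that entry had 6882 of 6902, while Gm15564 had 1 to 33 UMIs a library. The part of the list's share in the values of Mir6236, Lars2 and Gm15564 was not tested. Lars2 lost the call without EC Wnt5a replicate 18 or MSC Wnt5a replicate 6, Mir6236 without replicate 18 of EC Wnt5a, 7 or 9 of OBC WT, 12 of OBC Wnt5a or 1 of MSC WT, and Gm15564 in 12 of the 18 fits without 1 library (highest adjusted p over all alternatives 0.327, 0.466 and 0.502).

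The other higher genes act in different processes. Lamtor2, a subunit of the lysosomal Ragulator complex that recruits mTORC1, had 0.84, 1.15 and 0.90 in EC, OBC and MSC and a shared difference of 0.96 (SE 0.25, adjusted p = 0.0203). In EC it stood at 422, 287 and 311 CPM in WT and 1515, 340.4 and 374 in Wnt5a, so that replicate 16 alone lay above the WT range. In OBC it stood at 1205, 1878 and 1384 CPM in WT and 3200.1, 3545 and 3291 in Wnt5a. It lost the call without EC Wnt5a replicate 16, OBC WT replicate 7 or MSC WT replicate 1. Psmd4, a ubiquitin receptor of the proteasome, stood at 253, 287 and 311 against 606, 445 and 641 in EC, and at 306, 192 and 255 against 511, 678 and 559.7 in MSC. Groups were apart in OBC too, and the shared difference of 0.85 (SE 0.24, adjusted p = 0.036) was lost in 14 of the 18 fits without 1 library.

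Birc5, which encodes the mitotic protein survivin, was the exception in direction. It stood at 61.3, 76.9 and 63.8 CPM in MSC WT and 219, 542 and 385 in MSC Wnt5a, and at 226, 139 and 154 against 776, 810.2 and 1266 in OBC. In EC it had 118, 573 and 108 in WT and 303, 131 and 240.2 in Wnt5a, the high value being that of replicate 14. The log2 fold changes were -0.36, 2.39 and 2.52 in EC, OBC and MSC, and the shared difference was 1.52 (SE 0.39, adjusted p = 0.0203). It was the single proliferation gene of 11 tested to pass, and 10 of the 11 had positive values (median 0.54). Anp32b, a histone chaperone, had 2.36 in MSC and 0.56 and 0.55 in EC and OBC, with a shared difference of 1.15 (SE 0.27, adjusted p = 0.0121). Birc5 lost the call without EC Wnt5a replicate 18, MSC WT replicate 1 or MSC Wnt5a replicate 5, and Anp32b without OBC Wnt5a replicate 11 or MSC Wnt5a replicate 5. Ncl, the nucleolar protein nucleolin, had 0.95 (SE 0.27, adjusted p = 0.0343) and Kctd20 had 1.47 (SE 0.43, adjusted p = 0.0451), each lost in 12 of these 18 fits.

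The lower genes were 7 protein-coding genes, the mitochondrial alanine tRNA mt-Ta and 2 entries annotated as miRNAs. Cst3 (chr2:148871722-148875692), Rgcc (chr14:79288756-79301645) and Igfbp7 (chr5:77349240-77408041) are 3 of them that encode secreted or vascular proteins. The 250 bases before their RefSeq starts are shown for comparison with the neutrophil promoters, with GC boxes, GGGCGG on either strand, in capitals. The entries lie at chr2:148875513-148875762 on the minus strand, chr14:79301636-79301885 on the minus strand and chr5:77408046-77408295 on the minus strand (GRCm38.p6, RefSeq), each printed 5′ to 3′ towards the gene.
Cst3: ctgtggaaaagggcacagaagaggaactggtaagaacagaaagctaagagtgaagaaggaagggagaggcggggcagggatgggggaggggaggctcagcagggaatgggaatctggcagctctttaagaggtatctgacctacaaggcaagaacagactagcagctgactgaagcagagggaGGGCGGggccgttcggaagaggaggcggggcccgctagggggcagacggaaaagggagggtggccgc
Rgcc: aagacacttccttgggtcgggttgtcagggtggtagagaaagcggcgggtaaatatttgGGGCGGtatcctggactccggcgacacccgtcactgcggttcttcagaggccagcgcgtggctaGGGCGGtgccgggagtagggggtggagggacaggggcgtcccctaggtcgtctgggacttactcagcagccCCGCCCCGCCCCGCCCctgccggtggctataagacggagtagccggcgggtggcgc
Igfbp7: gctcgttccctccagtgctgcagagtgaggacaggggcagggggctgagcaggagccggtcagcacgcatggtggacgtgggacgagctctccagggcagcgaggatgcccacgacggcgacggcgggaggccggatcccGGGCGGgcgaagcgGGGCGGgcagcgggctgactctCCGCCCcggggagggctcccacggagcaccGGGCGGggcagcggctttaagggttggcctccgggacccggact
Cst3 has 1 GC box, Rgcc has 5 and Igfbp7 has 4. Among the neutrophil promoters S100a9 has 1 GC box, which is not in capitals above, and S100a8, Ltf and Ngp have 0. Of the Cst3 window 180 bases, its GC box included, lie inside the GENCODE gene, and 10 bases of the Rgcc window do. A GC box is present in 32.9% of all 27018 entries, in 59.1% of the 753 entries of tested genes, in 8 of the 14 higher genes and in 5 of the 7 lower genes.

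Cst3 encodes cystatin C, a secreted inhibitor of cysteine proteases. It stood at 2972, 2007 and 2189 CPM in EC WT and 833, 1493 and 1415 in EC Wnt5a, at 1431, 1529.9 and 615 against 388, 709 and 1012 in OBC, and at 2543, 1384 and 1915 against 1094, 711 and 1329 in MSC. Groups were apart in EC and MSC and overlapped in OBC. Its differences were nearly equal, at -0.88, -0.87 and -0.91 in EC, OBC and MSC, and the shared difference was -0.89 (SE 0.24, adjusted p = 0.0262). It lost the call without replicate 13 of EC WT, 7 or 8 of OBC WT, 10 or 11 of OBC Wnt5a, 1 of MSC WT or 5 of MSC Wnt5a, and without MSC (highest adjusted p 0.223).

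Rgcc, a regulator of the cell cycle that marks capillary endothelium, stood at 2803, 2369.7 and 2260.3 CPM in EC WT and 1136, 916 and 1228 in EC Wnt5a. In MSC it stood at 2237, 2499 and 1117 against 584, 609.8 and 1154, and in OBC at 452, 1321 and 615 against 582, 405 and 886. The EC groups were apart, and the MSC and OBC groups overlapped. Its shared difference was -0.97 (SE 0.25, adjusted p = 0.022), and it lost the call without replicate 8 of OBC WT, 10 or 11 of OBC Wnt5a, 1 or 2 of MSC WT, or 5 of MSC Wnt5a (highest adjusted p over all alternatives 0.291). Igfbp7, a secreted protein of the vascular matrix, had -0.83 (SE 0.25, adjusted p = 0.0489), the weakest call of all, lost in 13 of these 18 fits. Both belong to the endothelial list, of which 2 of 40 tested members were lower and 28 had negative values, with a median of -0.22 (-0.20 with members at 0 UMIs in a group set to their floor). The endothelial share of UMIs overlapped between genotypes in EC and OBC, and was 5.52% to 6.52% in MSC WT and 3.15% to 4.01% in MSC Wnt5a, without overlap. The part of this share in the values of Rgcc and Igfbp7 was not tested, and within EC alone Rgcc had -1.19 and Igfbp7 -0.33.

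Kitl, which encodes stem cell factor, the ligand of KIT on blood stem cells, differed mainly in MSC. There it stood at 797, 1038 and 574 CPM in WT and 365, 203 and 105 in Wnt5a. It stood at 709, 554 and 526 against 454, 471 and 400.3 in EC, and at 602, 695 and 461 against 679, 304 and 253 in OBC. The groups were apart in EC and MSC, and the log2 fold changes were -0.42, -0.51 and -1.96 in EC, OBC and MSC. The shared difference of -0.97 (SE 0.29, adjusted p = 0.0474) was lost without MSC (-0.49, adjusted p = 0.68) and in 13 of the 18 fits without 1 library. Kitl was the single niche factor of 9 tested to pass. The other 8 included the lipid carrier Apoe at -1.02 (SE 0.34, adjusted p = 0.0842), the lipoprotein lipase gene Lpl at -0.63 (SE 0.25, adjusted p = 0.176) and the chemokine gene Cxcl12 at -0.20 (adjusted p = 0.72). The list's median was -0.63, or -0.26 with the 2 members at 0 UMIs in a group set to their floor.

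The remaining lower genes had few molecules in OBC. Sema7a, a membrane-anchored semaphorin, had 37, 38 and 28 UMIs in EC WT and 1, 17 and 12 in EC Wnt5a, and 17, 16 and 12 against 2, 5 and 6 in MSC. In OBC it had 1, 3 and 1 UMIs in WT and 0 in each Wnt5a library. Every Wnt5a library lay below every WT library of its population, with log2 fold changes of -1.25 in EC and -1.47 in MSC (shared test, adjusted p = 0.0203). Because 1 group is at 0, the fitted shared value is no measured fold, and with that group set to 3 UMIs the mean of the pooled ratios is -1.03. Gdpd3, a phospholipase D-like enzyme, had 25, 34 and 50 UMIs in EC WT and 0, 33 and 7 in EC Wnt5a, and 13, 18 and 21 against 1, 6 and 4 in MSC (adjusted p = 0.0358). Son, a splicing cofactor of nuclear speckles, had -1.29 in EC and -1.36 in MSC but -0.11 in OBC, with a shared difference of -0.92 (SE 0.25, adjusted p = 0.0259). The tRNA mt-Ta had 8, 11 and 3 UMIs in OBC WT against 0, 1 and 1 in OBC Wnt5a, and 13, 8 and 3 against 1, 1 and 2 in MSC (adjusted p = 0.022). Gm27441 and Gm26339, annotated as miRNAs, had 38, 133 and 52 against 3, 14 and 3 and 27, 88 and 29 against 7, 12 and 5 UMIs in EC (adjusted p = 0.0213 and 0.0474), and these counts do not measure a mature miRNA. UMIs are not scaled for depth, which was lowest in EC Wnt5a replicate 16 among the EC libraries. Sema7a lost the call without replicate 8 of OBC WT or 10 or 11 of OBC Wnt5a, and mt-Ta without OBC Wnt5a replicate 10, MSC WT replicate 1 or MSC Wnt5a replicate 5 (highest adjusted p over all alternatives 0.145 and 0.076). Son and Gm27441 lost it in 6, Gdpd3 in 8 and Gm26339 in 11 of the 18 fits without 1 library.

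Several groups that the design brings to mind had no member past the test. None of the 38 tested actin genes and regulators passed, with 15 positive and 23 negative values and a median of -0.07, close to that of all genes tested. Among them the filament elongation factor gene Vasp had 0.77 (SE 0.30, adjusted p = 0.164), the Arp2/3 subunit gene Actr2 0.85 (SE 0.34, adjusted p = 0.172) and the myosin light chain gene Myl6 -0.63 (SE 0.23, adjusted p = 0.146). Of 60 listed WNT ligands, receptors and mediators, 8 were deep enough to test and none passed, with Rac1 at -0.84 (SE 0.41, adjusted p = 0.289) and Cdc42 at -0.77 (SE 0.38, adjusted p = 0.296). All 6 tested interferon response genes had negative values, with a median of -0.75, and none passed. Ifitm3, which restricts virus entry, was nearest at -1.09 (SE 0.35, adjusted p = 0.0688), with -0.94, -1.35 and -0.99 in EC, OBC and MSC. Bst2, which tethers virus particles, had -1.05 (SE 0.39, adjusted p = 0.146). Of 7 tested osteoblast matrix genes none passed the shared test. Within OBC, where 14 genes passed (1.27% of those tested), both type I collagen chains fell: Col1a1 by 1.89 on the log2 scale (SE 0.43, adjusted p = 0.0122) and Col1a2 by 1.72 (SE 0.45, adjusted p = 0.043). Col1a1 stood at 8887, 10779 and 3229 CPM in OBC WT against 2133, 3038 and 1012.5 in OBC Wnt5a. Col1a2 stood at 13255, 11614 and 2307 against 2618, 3848 and 1898, so that its WT replicate 9 lay within the Wnt5a range. Col1a1 had -0.13 and -0.25 in EC and MSC. None of 40 tested nuclear genes of oxidative phosphorylation and none of 17 translation factors passed.

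Agreement between the populations was also described over all 1099 genes, the 34 included. The differences in EC and MSC had Pearson's r = 0.342 and Spearman's rho = 0.307 across genes, those in OBC and MSC 0.152 and 0.16, and those in EC and OBC 0.0583 and 0.0424. These values describe genes of the same libraries, which are not independent replicates. The sign was the same for 60.8% of genes in EC and MSC, 56.6% in OBC and MSC and 53.7% in EC and OBC. In all 3 populations 174 genes were positive and 218 negative.

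**Figure D4:**
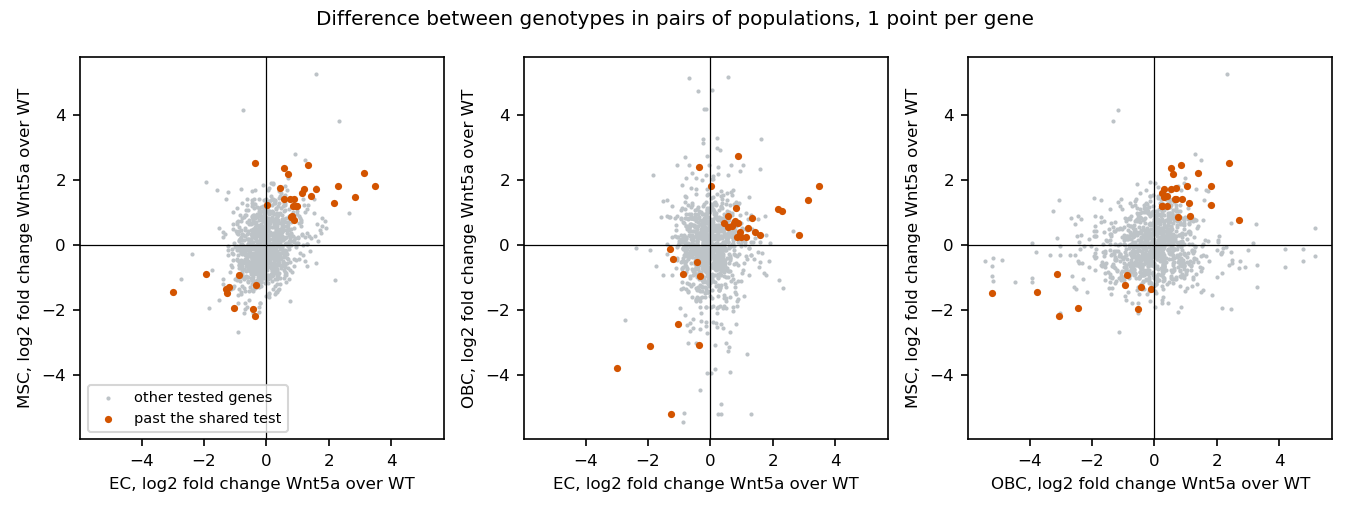
Log2 fold change of Wnt5a over WT in 1 population against another for the 1099 tested genes, with the 34 genes past the shared test in orange, which lie in the lower left and upper right because the test selects them. The grey cloud leans most in the panel of EC and MSC (r = 0.342) and least in that of EC and OBC (r = 0.0583).

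The populations differed from each other mainly in mitochondrial transcripts. The test of interaction was passed by 6 genes, 0.546% of those tested: mt-Nd5, mt-Nd3, mt-Nd1 and mt-Nd4, which encode subunits of respiratory complex I, and the pseudogenes Gm13340 and Gm13341 on chromosome 2. mt-Nd5 stood at 3464, 4103 and 1230.2 CPM in OBC WT and 388, 405 and 127 in OBC Wnt5a. In EC it stood at 186, 115 and 83.7 against 75.7, 301 and 80.1, and in MSC at 214, 192 and 95.7 against 146, 440.4 and 385. The OBC groups were apart and the others overlapped, with log2 fold changes of 0.58, -3.25 and 1.05 in EC, OBC and MSC (interaction adjusted p = 0.0026). mt-Nd3 had 1.16, -3.36 and -0.29 (interaction adjusted p = 0.00261). mt-Nd1 and mt-Nd4 had -2.36 and -1.86 in OBC and between 0.09 and 0.85 elsewhere (interaction adjusted p = 0.0246 and 0.0425). None of these 4 genes passed the shared test, in which they had between -0.83 and -0.25.

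**Figure D5:**
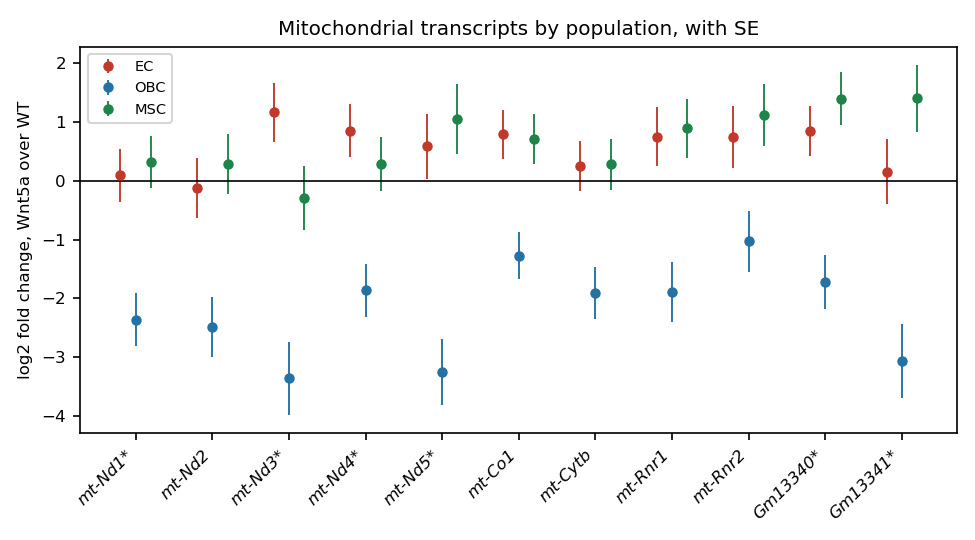
Log2 fold change of Wnt5a over WT, with standard error, for 9 mitochondrial transcripts and the pseudogenes Gm13340 and Gm13341 in EC, OBC and MSC. A star marks the 6 genes past the test of interaction. OBC lies below 0 for each transcript shown.

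The mitochondrial share of UMIs was 11.5% to 16.6% in OBC WT and 3.49% to 8.12% in OBC Wnt5a. It was 0.697% to 2.09% against 2.37% to 2.42% in EC and 1.58% to 2.12% against 2.53% to 4.25% in MSC, so that the groups were apart in all 3 populations, in opposite directions. In the same OBC Wnt5a libraries the sum of the osteoblastic markers, type I collagen transcripts among them, was also lower. The part of these markers in the mitochondrial difference was not tested. The number of genes past the test of interaction was 2 without OBC WT replicate 7, 3 without OBC Wnt5a replicate 12, 10 without OBC WT replicate 9 and 15 without EC WT replicate 15. mt-Nd5 and mt-Nd3 passed in every one of the 18 fits without 1 library.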

How the data were processed

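The authors deposited a table of UMI counts per gene for 18 niche libraries, 3 in each of 6 groups taken from the labels. STAR, featureCounts and the build mm10 (GRCm38) are named in the submitters' processing notes. Tool versions, the annotation, the use of strand and the collapsing of UMIs were not given in the sources used here. Each library's column was found by its title, and 0 other columns of samples were left unused. Of 18194 mouse genes 17973 were matched to a symbol by identifier, with positions from GENCODE M21, and 2264 were at 0 in every library. Spike-in entries were left out of library sizes and tests. Genes were kept by filterByExpr (count at least 10, total at least 15), which left 1099. The filter took libraries of both genotypes together. Some genes were kept only with the libraries where they were higher, among them Ltf, Birc5 and Kctd20 with Wnt5a, and Sema7a and mt-Ta with WT. Counts and medians of tested list members include such genes.

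Counts were scaled by TMM and fitted in edgeR 4.0.16 (R 4.3.3) with a mean for each of the 6 groups and no covariate. The shared difference is the mean of the 3 differences, and the interaction tests whether they differ. Both use the quasi-likelihood test with Benjamini-Hochberg adjustment over all 1099 genes, and the common biological coefficient of variation was 0.318. CPM values are per 1000000 UMIs of tested genes after TMM scaling. Shares of UMIs carry exact Clopper-Pearson 95% intervals, and the floor is 3 UMIs. Both cover counting error only. Library measures were compared by an exact permutation test within populations. The procedure was also run on simulated libraries, drawn independently from the fitted means and spread. Such a run cannot show what shared animals or sex would do. Alternatives were RLE scaling, other filters, DESeq2 1.42.0, limma 3.58.1 (voom), an additive population term, and omission of each library or population. Another removed haemoglobin, immunoglobulin, mitochondrial and ribosomal RNA transcripts with Mir6236 and Lars2, and kept neutrophil transcripts. A block by place of the replicate number and omission of the 3 Wnt5a libraries of lowest Xist were added after seeing the data.

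The genes and lists were chosen with earlier results of these data known. The rule for named genes took up to 15 genes of smallest p past the test in each direction, without predicted genes, which gave 15 higher and 8 lower. It also took up to 10 genes of the interaction, which gave 4, and up to 3 tested members of each list. The predicted genes, Rpl13a-ps1, Rpl13a, Rpl27, Ncl, Kctd20, Camp, Hspa1a, Dnaja1, Fos, Cxcl12 and Cav2 were named after their values were seen.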

Additional observations from a re-analysis of the deposited data

Results flagged for a closer look

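For 6 genes the Wnt5a against WT difference differed between EC, OBC and MSC by edgeR's test of interaction. The adjusted p was 0.0026 for mt-Nd5, 0.00261 for mt-Nd3, 0.0246 for mt-Nd1 and 0.0425 for mt-Nd4. For the chromosome 2 pseudogenes Gm13340 and Gm13341 it was 0.00662 each, with log2 fold changes of 0.85, -1.72 and 1.39 and of 0.15, -3.06 and 1.40 in EC, OBC and MSC. In OBC all 6 were lower in Wnt5a, with every Wnt5a library below every WT library. Near-identical mitochondrial and nuclear copies share reads, so the values of the pseudogenes may belong to the mitochondrial transcripts.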

How the results depend on the processing

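Over the 34 genes past the shared test, none of 1003 values under an alternative changed direction and 327 did not pass, while S100a9, S100a8 and Ltf passed in every alternative run. The alternatives reuse libraries that picked the 34 genes, so the unchanged direction is no separate evidence. The 34 genes became 14 with no filter (10 higher, 4 lower; 15930 genes tested), 7 without MSC (5 and 2; 552 tested) and 18 without the 3 libraries of lowest Xist (17 and 1), and ran from 14 to 71 without 1 library (10 to 52 higher, 1 to 19 lower). The 10 lower genes became 6 without haemoglobin, immunoglobulin, mitochondrial and ribosomal RNA transcripts, a run that kept the neutrophil transcripts. They became 16 without EC, 19 without OBC and 6 with the block described next. No paired analysis was possible because no replicate number occurs in more than 1 of the 6 niche groups, so the labels pair no libraries. A replicate block by place of the number within its group (limma voom, consensus correlation 0.0623) gave 31 genes, with Lamtor2, Rgcc, mt-Ta, Gdpd3, Kitl, Igfbp7, Gm15564, Rpl13a-ps1, Gm26339 and Gm12346 not past the test. Residuals of same-place libraries correlated positively in 17 of 18 pairs (median 0.068), against 8 of 36 other pairs, a hint from the data and not the design. Residuals within a group nearly cancel, so positive same-place pairs push the other pairs negative, and the 36 are no separate baseline.

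The 6 genes of the interaction became 10 with no filter. They became 2 without haemoglobin, immunoglobulin, mitochondrial and ribosomal RNA transcripts, and ran from 2 to 15 without 1 library. Within EC, 4 genes passed (2 without the libraries of lowest Xist, 2 to 22 without 1 library). Within OBC, 14 passed (3 without the same transcripts, 6 without MSC, 9 without the libraries of lowest Xist). Without 1 library, 3 to 17 passed. Within MSC, 5 passed (9 with RLE, 0 with no filter, 13 with a minimum count of 5, 36 with DESeq2, 11 with voom). Other runs gave 20 without the same transcripts, 47 without EC, 11 with the block and 15 without the libraries of lowest Xist. Without 1 library, 0 to 42 passed in MSC. Without OBC the shared values of mt-Nd5, mt-Nd3, mt-Nd1 and mt-Nd4 turned positive, at 0.84, 0.48, 0.26 and 0.62. The cause of the other changes was not tested.

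Total UMIs differed by -0.55 on the log2 scale (-0.74 to -0.32 without 1 library), genes detected by -0.26 (-0.35 to -0.16) and the spike-in share by -0.77 (-0.95 to -0.62), with unadjusted exact permutation p = 0.104, 0.0955 and 0.038 (adjusted 0.104 for each). The spike-in share rests on 0 to 8 UMIs a library, and its unadjusted p was at or over 0.05 in 10 of the 18 tests without 1 library. The spike-in share had a rank difference of -1.67 (exact permutation p = 0.0768). The depth of 10635 to 117989 UMIs left 1099 of 18194 genes testable, and a gene that missed the threshold is not shown to be equal.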
